A study of Mus musculus with 2 samples.

Results

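The mitochondrial ribosomal proteins were taken as all genes whose symbol is Mrpl or Mrps followed by a number and at most 1 letter, and 75 of the 14678 genes in the deposited table met this rule, 47 with an Mrpl and 28 with an Mrps symbol. They were measured in uteri collected at gestation day 2.5 from mice with a pair of transgenes, VEGFtetO/tetO/beta-AKtg/wt. In these mice tet operators sit in the Vegf promoter, and a tetR-Krab repressor is expressed throughout the body from a β-actin promoter, so that the repression is not limited to the uterus or to one cell type. Dox+ mice ate chow with doxycycline, which releases the repressor (VEGF-normal), and Dox- mice, raised on that chow, were moved to regular chow after weaning age (VEGF-repression). Both groups carried the same alleles and were young adult littermates. Doxycycline intake and VEGF level differed together between the groups, so that the drug itself and VEGF cannot be told apart below. RNA of 3 uteri was pooled for each condition and 1 digital gene expression (DGE) library was sequenced per condition, so that no difference below has a replicate check. The pooled uteri are not separate measurements.

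The mitoribosome is the ribosome inside mitochondria. It translates the few mRNAs of the mitochondrial genome, which encode core subunits of the respiratory chain and of the ATP synthase, and all of its proteins are encoded in the nucleus, made in the cytosol and imported. Part of these proteins have counterparts in the bacterial ribosome, and the rest arose in mitochondria. GABPA (an ETS factor), NRF1 and YY1 are known as activators of nuclear genes for mitochondrial proteins, including those for mitochondrial translation.

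Copies are unambiguous clean tags counted per gene, and they summed to 4437506 over all genes in Dox+ and 4218459 in Dox-. Both sums are below the totals of unambiguous mapped tags that the authors report. What was left out is not given in the sources used here. The libraries held 5985925 and 5844314 clean tags, which the deposited TPM (copies per 1000000 clean tags) imply. Ratios are Dox- over Dox+, of copies divided by clean tags, with an exact 95% Clopper-Pearson interval that covers counting error alone. Genes with at least 200 combined copies were compared, and a gene was called higher or lower at a ratio of at least 1.5 in either direction. Vegfa, the targeted gene, had 247 copies in Dox+ and 125 in Dox-, a ratio of 0.518 (0.415 to 0.645). All of the 1955 genes called in the table had a counting interval that left out a ratio of 1. This follows from the minimums of 200 copies and 1.5-fold and adds no support to the calls.

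The symbols were checked against the GO columns of the table. Terms for the organellar ribosome or its subunits were assigned to 43 of the 75 genes and to 5 other genes, among them Dap3, Ict1 and Mrp63, which are mitoribosome proteins named differently. The other 32 genes did not carry these terms, and what terms they carried was not sorted. By structure Mrps18a and Mrps30, in spite of their symbols, are known as parts of the large subunit, and both are counted with it where the groups are built by structure.

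Promoter sequences are shown first for 4 genes that the results turn on. Mrpl42 and Mrpl32 were higher in Dox-, Mrps30 was lower, and Mrpl33 was equal in both libraries and among the most abundant. The windows run from 250 bases before to 50 bases after the transcription start, 5′ to 3′ on the strand of the gene, from RefSeq on GRCm38.p6. Capitals mark the letters CCGGAAG (ETS/GABPA), TGCGCA (NRF1) and AAGATGG (YY1), searched on both strands. The windows are chr10:95501900-95502199 on the minus strand for Mrpl42, chr13:14612988-14613287 on the minus strand for Mrpl32, chr13:118387203-118387502 on the minus strand for Mrps30 and chr5:31613701-31614000 on the plus strand for Mrpl33.
Mrpl42: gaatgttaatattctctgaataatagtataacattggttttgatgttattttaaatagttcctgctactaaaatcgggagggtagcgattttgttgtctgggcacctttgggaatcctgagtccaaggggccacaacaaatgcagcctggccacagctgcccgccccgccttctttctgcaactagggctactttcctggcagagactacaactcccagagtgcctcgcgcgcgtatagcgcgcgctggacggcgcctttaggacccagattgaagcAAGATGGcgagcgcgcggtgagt
Mrpl32: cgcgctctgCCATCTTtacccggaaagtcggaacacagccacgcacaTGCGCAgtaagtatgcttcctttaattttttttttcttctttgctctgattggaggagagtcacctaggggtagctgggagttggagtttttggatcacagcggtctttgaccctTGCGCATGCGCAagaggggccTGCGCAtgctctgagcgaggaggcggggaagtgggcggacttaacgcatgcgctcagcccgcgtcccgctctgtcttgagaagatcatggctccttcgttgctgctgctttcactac
Mrps30: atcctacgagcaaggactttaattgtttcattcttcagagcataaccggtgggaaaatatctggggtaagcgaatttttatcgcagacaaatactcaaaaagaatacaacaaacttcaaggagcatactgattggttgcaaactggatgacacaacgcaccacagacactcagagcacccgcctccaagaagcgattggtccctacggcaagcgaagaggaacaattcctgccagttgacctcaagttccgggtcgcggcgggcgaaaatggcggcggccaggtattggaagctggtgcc
Mrpl33: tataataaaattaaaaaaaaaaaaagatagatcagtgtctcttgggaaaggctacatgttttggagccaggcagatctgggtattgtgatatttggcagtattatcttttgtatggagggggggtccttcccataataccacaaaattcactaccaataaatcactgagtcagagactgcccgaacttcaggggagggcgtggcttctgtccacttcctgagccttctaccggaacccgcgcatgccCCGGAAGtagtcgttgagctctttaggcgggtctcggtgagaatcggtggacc
Mrpl42 held 1 YY1 match just after its start, Mrpl32 held 4 NRF1 matches and 1 YY1 match, Mrpl33 held 1 ETS/GABPA match across its start, and Mrps30 held none of these letters. In Mrpl32 a pair of the NRF1 matches stands side by side.

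A promoter window was found for 66 of the 75 genes, 72 windows in all, since Mrpl48, Mrpl2 and Mrps16 have several starts. The ETS/GABPA letters were in 24 of the 72 windows (33.3%), beside 19.1% of the windows of all genes compared and 8.86% of all 32851 windows. NRF1 letters were in 20 windows (27.8%), beside 14.9% and 7.76%. YY1 letters were in 13 windows (18.1%), beside 7.60% and 6.34%. At least 1 of the motifs was in 43 windows (59.7%), beside 35.6% of the windows of genes compared and 20.4% of all windows. In cytosolic ribosomal protein genes 58.3% of the windows held any motif. ETS/GABPA letters were in 33.3% of them, NRF1 letters in 18.3% and YY1 letters in 13.3%. In nuclear OXPHOS subunits any motif was in 52.2%, and the motifs in the same order in 23.9%, 25.4% and 16.4%. The cytosolic family was thus close to the mitoribosome genes for ETS/GABPA, and the OXPHOS family for NRF1 and YY1. No single share above is particular to the mitoribosome genes. The median GC content was 58.5% in the windows of the mitoribosome genes, 61.7% in those of all genes compared and 52.7% in all windows. Windows with and without a motif were found among the genes called in each direction. Of the 7 windows of genes called higher, 3 held a motif, and of the 5 windows of genes called lower, 2 did. Several of the 7 are nearly coinciding windows of Mrpl2 without a motif. Mrpl19 and Mrpl4, both called lower, had no window. These shares are descriptions without a test, and a match is not a bound site.

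**Figure D1:**
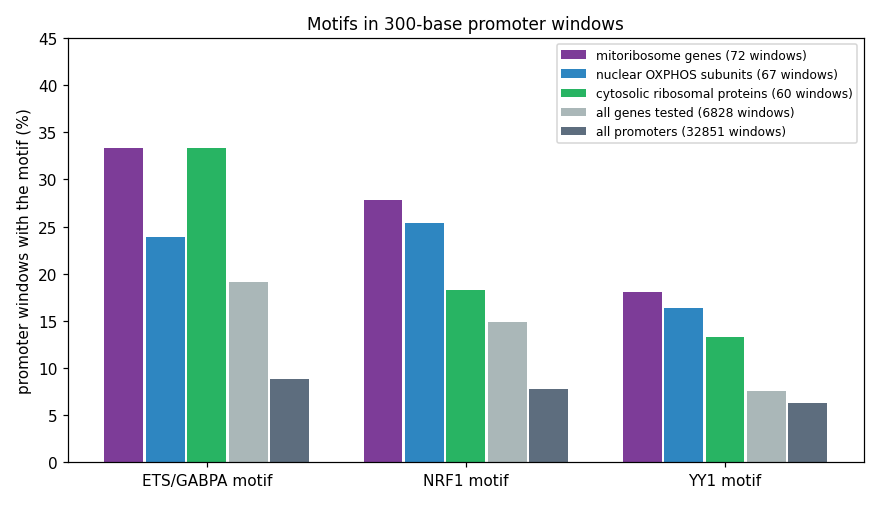
Share of 300-base promoter windows (y axis, %) that hold the ETS/GABPA, NRF1 or YY1 letters on either strand, in the mitoribosome genes, nuclear OXPHOS subunits, cytosolic ribosomal proteins, all genes compared and all RefSeq promoters. The mitoribosome windows stand at 33.3%, 27.8% and 18.1%, above the windows of all genes compared (19.1%, 14.9% and 7.60%) for each motif.

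The mitoribosome genes as a family held the same share of both libraries. Their copies summed to 22995 in Dox+ and 22491 in Dox-, or 0.384% and 0.385% of the clean tags, a ratio of 1.002 (0.983 to 1.02). Under other library scalings this ratio lay between 0.978 and 1.029, so that the sum has no direction. The sum over the 47 Mrpl genes gave a ratio of 1.003 (0.981 to 1.025), and that over the 28 Mrps genes 0.999 (0.965 to 1.034). The genes were moderately abundant, with a median of 271 copies in Dox+ and 254 in Dox-, and the median in Dox+ equals percentile 78.3 of all genes detected there. Each of the 75 genes had a tag in both libraries, and 61 had 100 copies or more in both.

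The level of single genes spanned a wide range. Mrpl54, a protein of the large subunit stalk, had the most copies, 1243 in Dox+ and 1350 in Dox-, a ratio of 1.11 (1.03 to 1.20). Mrpl33, a counterpart of bacterial L33, had 1120 and 1094 copies, a ratio of 1.0 (0.920 to 1.09). Mrpl52, a mitochondrion-specific protein of the large subunit, had 877 and 978 copies, and Mrpl17, a protein of the exit site, had 816 and 795. These leading genes differed little or not at all between the libraries. The next in copies were Mrps7 with 613 and 683 copies, Mrpl51 with 568 and 710, Mrpl13 with 501 and 728, Mrpl23 with 589 and 537, Mrpl24 with 666 and 453, and Mrpl36 with 583 and 482. Of these, Mrpl13, the counterpart of bacterial L13, came closest to the threshold with a ratio of 1.49 (1.33 to 1.67). None of the 10 genes with the most copies was called.

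At the other end, Mrps27 had 6 and 10 copies and Mrpl9 had 7 and 16. Divided by the length of the longest coding transcript of each gene (GENCODE, NCBIM37), Mrpl33, Mrpl52 and Mrpl54 also led, with 391, 356 and 344 TPM per kilobase in Dox+ and 392, 406 and 382 in Dox-. Mrps27 and Mrpl9 were again the lowest in Dox+ on that scale, with 0.542 and 0.706 TPM per kilobase. A tag count need not scale with length, so that both scales are given. The plot of levels shows most genes within 1.5-fold of the diagonal.

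**Figure D2:**
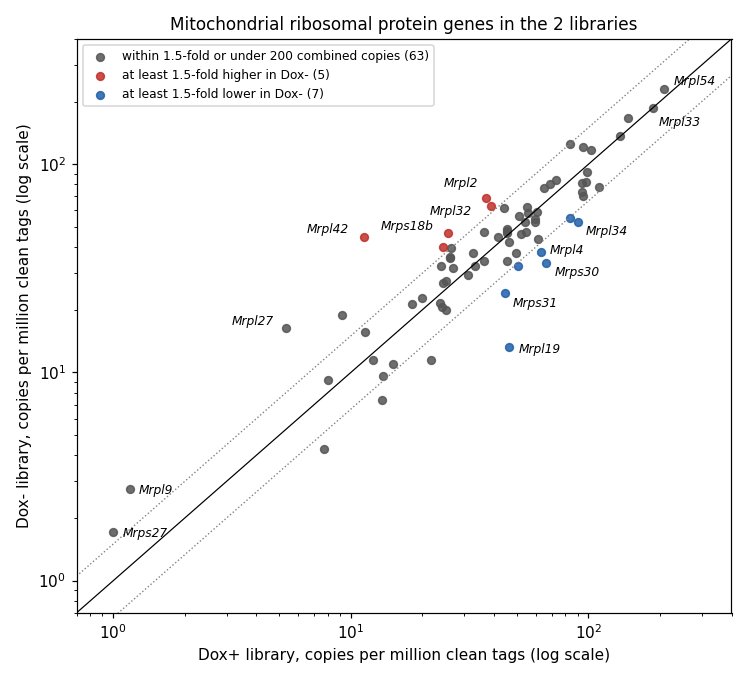
TPM (copies per 1000000 clean tags) of the 75 mitochondrial ribosomal protein genes in the Dox+ library (x axis) and the Dox- library (y axis), both on log scales, 1 point per gene. The solid line marks equal levels and the dotted lines a 1.5-fold difference, 5 genes (red) lie above and 7 (blue) below at 200 or more combined copies, and Mrpl42 and Mrpl19 lie farthest out among these.

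Of the 75 genes, 63 had at least 200 combined copies and were compared. Called higher in Dox- were 5 (7.94%) and called lower 7 (11.1%), beside 15.2% and 14.7% of the 6547 genes compared over the table. With the sum of all gene copies as library size, 7 were called higher and 6 lower. Among table genes with no more combined copies than Mrpl54, 15.5% were called higher and 14.7% lower. Together these are 12 of the 63, beside 29.9% of all genes called in either direction. At 2-fold 1 gene was higher (Mrpl42) and 1 lower (Mrpl19), beside 4.61% and 5.62% over the table. A ratio above 1 was found in 33 of the 63 genes (52.4%) and in 52.1% of all genes compared. The log2 ratios of the 63 genes had a median of 0.050, and those of all genes compared one of 0.035. The interquartile range of the 63 genes was -0.21 to 0.23 and that of all genes compared -0.36 to 0.40. At a ratio of 1.25 in either direction, 27 of the 63 genes (42.9%) lay past it, beside 56.2% of all genes. The counting interval lay above 1 in 19 genes and below 1 in 15, beside 34.8% and 31.5% of all genes, and so it left out 1 in 54% of the family and in 66.2% of the table. In 29 genes the interval held a ratio of 1, and in a further 22 it left out 1 while the ratio stayed within 1.5-fold.

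**Figure D3:**
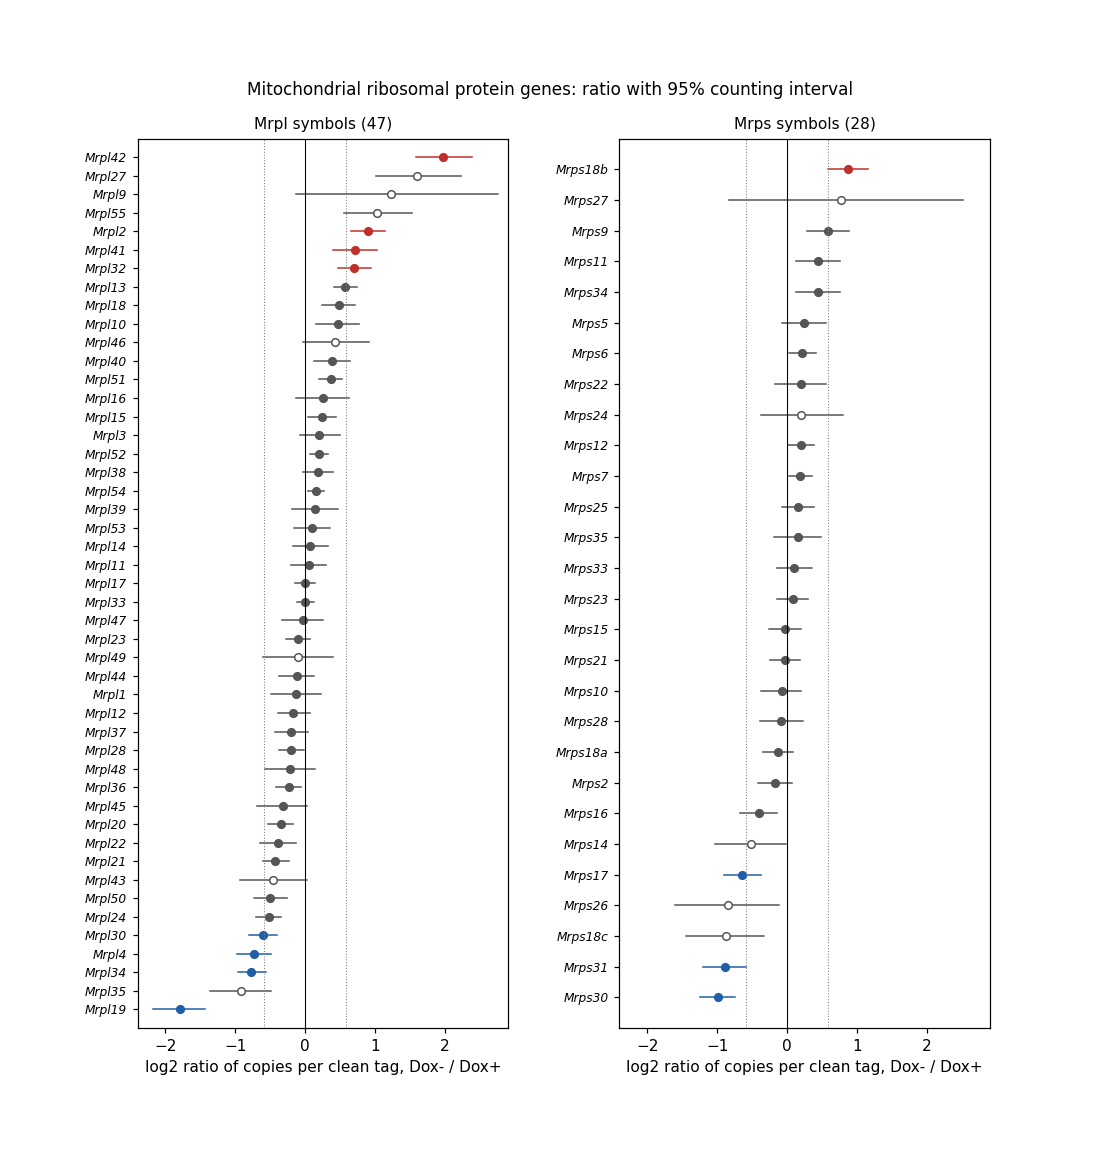
Log2 ratio of copies per clean tag, Dox- over Dox+ (x axis), for each Mrpl gene (left) and Mrps gene (right), with its 95% counting interval as a horizontal line. Red and blue points are the 5 genes called higher and the 7 called lower, open points are the 12 genes under 200 combined copies, and the dotted lines mark 1.5-fold.

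Mrpl42 had the largest rise of the family. It encodes a mitochondrion-specific protein of the large subunit (chromosome 10, 94943440 to 94964561, minus strand, NCBIM37) and rose from 68 copies to 260, a ratio of 3.92 (2.99 to 5.19). Mrpl2, the counterpart of bacterial L2 near the peptidyl transferase center (chromosome 17, 46783178 to 46787088, plus strand), rose from 222 to 404 copies, a ratio of 1.86 (1.58 to 2.21). Mrps18b, 1 of the paralogs of bacterial S18 (chromosome 17, 36047324 to 36053334, minus strand), rose from 154 to 274 copies, a ratio of 1.82 (1.49 to 2.23). Mrpl41, a mitochondrion-specific protein of the large subunit (chromosome 2, 24829637 to 24830618, minus strand), rose from 146 to 233 copies, a ratio of 1.63 (1.32 to 2.02). Mrpl32, which is matured inside mitochondria by the m-AAA protease (chromosome 13, 14702568 to 14705304, minus strand), rose from 233 to 369 copies, a ratio of 1.62 (1.37 to 1.92). The interval of Mrpl42 lay above those of the other four, which overlap each other.

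Mrpl19 had the largest fall. It encodes the counterpart of bacterial L19 (chromosome 6, 81907845 to 81915952, minus strand) and fell from 277 copies to 78, a ratio of 0.288 (0.221 to 0.372). Mrps30, a protein placed in the large subunit (chromosome 13, 119168917 to 119176059, minus strand), fell from 396 to 195 copies, a ratio of 0.504 (0.423 to 0.600). Mrps31, a mitochondrion-specific protein of the small subunit (chromosome 8, 23521812 to 23540137, plus strand), fell from 266 to 140 copies, a ratio of 0.539 (0.436 to 0.664). Mrpl34, the counterpart of bacterial L34 (chromosome 8, 73988825 to 73989651, plus strand), fell from 540 to 310 copies, a ratio of 0.588 (0.510 to 0.677). Mrpl4, the counterpart of bacterial L4 (chromosome 9, 20807181 to 20813279, plus strand), fell from 377 to 221 copies, a ratio of 0.600 (0.506 to 0.711). Mrps17 and Mrpl30 had smaller falls, from 301 to 189 copies and from 500 to 321, with ratios of 0.643 (0.533 to 0.774) and 0.658 (0.570 to 0.758). The interval of Mrpl19 lay below those of the other 6 genes. At 1.5-fold, the exact test of edgeR called 12 of the 63 genes at an assumed between-pool variation (coefficient of variation) of 0.1. Over the table this was so for 26.2% of all genes compared. At a variation of 0.2 the test called Mrpl42 and Mrpl19 alone of the 63, beside 4.90% over the table. How much pools of uteri truly vary is unknown from 1 library each.

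The GENCODE annotation places a gene of the opposite strand over Mrpl19 (AW146020) and none over Mrpl42. Over all 75 genes, 19 overlap a coding gene on the opposite strand and 6 on the same strand, among them Mrpl33 with Bre. RefSeq names a pseudogene of Mrpl23, of Mrpl27 and of Mrpl48, and tags shared with such a copy may be lost from the counts, since unambiguous tags were counted, so that the copies of these genes are uncertain.

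Grouped by origin and subunit, the genes of each class were spread around a ratio of 1. Of the 26 bacterial-type proteins of the large subunit that were compared, 2 were called higher and 4 lower, with a median log2 ratio of -0.069. Their copies summed to 10929 in Dox+ and 10048 in Dox-, a ratio of 0.942 (0.916 to 0.968). Of 16 mitochondrion-specific proteins of the large subunit, 2 were called higher and 1 lower, with a median of 0.11, and the sums were 6153 and 6454 copies, a ratio of 1.074 (1.037 to 1.113). Among 13 bacterial-type proteins of the small subunit none was called higher and Mrps17 was called lower, with a median of -0.034 that turns positive with the sum of all gene copies as library size. Of 8 mitochondrion-specific proteins of the small subunit, among which the S18 paralog Mrps18b was listed, Mrps18b was called higher and Mrps31 lower. A ratio above 1 was found in 7 of the 8, beside 52.1% of all genes compared, and the median was 0.15. The counting interval lay above 1 in 2 of the 8 and below 1 in 1, beside 34.8% and 31.5% of all genes compared. By symbol, the median was -0.001 over 40 Mrpl genes, positive with the sum of all gene copies as library size, and 0.10 over 23 Mrps genes.

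The stalk of the large subunit, with L10, L11 and L12 counterparts, recruits translation factors. All 5 listed stalk genes were compared, none was called, and 4 had a ratio above 1, beside 52.1% of all genes compared. Mrpl10 had 156 and 209 copies, a ratio of 1.37 (1.11 to 1.70). Mrpl11 had 271 and 274 copies and Mrpl53 had 250 and 260, and both intervals held a ratio of 1. Mrpl12, the L12 counterpart, had 355 and 309 copies, a ratio of 0.892 (0.763 to 1.04). Together with Mrpl54 these genes summed to 2275 copies in Dox+ and 2402 in Dox-.

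At the polypeptide exit site new chains leave toward the inner membrane. None of the 8 listed genes was called, and 7 had a ratio below 1. A ratio above 1 was found in 1 of the 8 (12.5%), beside 52.1% of all genes compared. The counting interval lay below 1 in 2 of the 8, beside 31.5% of all genes compared. Mrpl24 had 666 and 453 copies, a ratio of 0.697 (0.617 to 0.786), and Mrpl22 had 295 and 220, a ratio of 0.764 (0.639 to 0.913). Mrpl45, which anchors the mitoribosome to the membrane, had 150 and 117 copies, a ratio of 0.799 (0.622 to 1.02). Mrpl44 had 276 and 248 copies, Mrpl47 200 and 190, and Mrpl39 150 and 161, all with intervals that held 1, as did those of Mrpl17 and Mrpl23. The 8 genes summed to 3142 and 2721 copies, a ratio of 0.887 (0.842 to 0.934).

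The 6 listed genes of the central protuberance summed to 1056 and 1306 copies, a ratio of 1.267 (1.167 to 1.375). That sum includes Mrpl27 and Mrpl46, which were not compared. Mrpl27 and Mrpl48 have a pseudogene, as given above, so that their copies are uncertain. Of the 4 genes compared none was called, and 3 had a ratio above 1, beside 52.1% of all genes compared. The counting interval lay above 1 in 2 of the 4, beside 34.8% of all genes compared. Mrpl18 had 264 and 359 copies, a ratio of 1.39 (1.18 to 1.64), and Mrpl40 had 217 and 276, a ratio of 1.30 (1.09 to 1.56). Mrpl38 with 330 and 364 copies and Mrpl48 with 144 and 121 had intervals that held 1. Mrpl27 and Mrpl46, with 32 and 95 and with 69 and 91 copies, had too few copies to be compared.

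Just inside the threshold of 1.5-fold were, beside Mrpl13 and Mrpl24, Mrps9, with 158 and 230 copies, a ratio of 1.49 (1.21 to 1.84), and Mrpl50, with 367 and 254 copies, a ratio of 0.709 (0.602 to 0.834).

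Under 200 combined copies there were 12 genes, and in 6 of them the counting interval left out a ratio of 1. Mrpl27 had a ratio of 3.04 (2.02 to 4.69), and Mrpl55, with 55 and 110 copies, had 2.05 (1.47 to 2.89). Mrpl35, with 130 and 67 copies, had a ratio of 0.528 (0.387 to 0.714), Mrps18c, with 81 and 43, had 0.544 (0.367 to 0.797), Mrps26, with 46 and 25, had 0.557 (0.328 to 0.925), and Mrps14, with 82 and 56, had 0.699 (0.489 to 0.995). In Mrpl46, Mrpl43, Mrpl49, Mrps24, Mrpl9 and Mrps27 a difference was not detectable at this depth. Mrpl43 had 90 and 64 copies, Mrpl49 74 and 67, and Mrps24 48 and 54.

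Mitoribosome proteins that go by other symbols did not move as 1 group. Of 5 compared, Gadd45gip1, a protein of the large subunit, fell from 458 to 278 copies, a ratio of 0.622 (0.534 to 0.723). Dap3, a GTP-binding protein of the small subunit, had 408 and 438 copies, and Aurkaip1 had 397 and 294, a ratio of 0.758 (0.650 to 0.884). Ict1, a peptide release factor built into the large subunit, had 214 and 248 copies and Ptcd3 130 and 123.

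Among the factors that work with the mitoribosome, 4 of the 11 listed translation factors had enough copies. Tufm, the elongation factor that brings aminoacyl-tRNA to the mitoribosome, rose from 142 to 291 copies, a ratio of 2.10 (1.71 to 2.58). Tsfm, its exchange factor, rose from 184 to 298 copies, a ratio of 1.66 (1.38 to 2.0). Mrrf, the ribosome recycling factor, fell from 208 to 129 copies, a ratio of 0.635 (0.506 to 0.795), and Gfm1, the translocase, had 123 and 132. Of 12 compared genes of mitoribosome assembly, rRNA modification and matrix proteolysis, Lonp1, a protease of the mitochondrial matrix, rose from 653 to 1260 copies, a ratio of 1.98 (1.80 to 2.18), and Dhx30, an RNA helicase, fell from 148 to 86, a ratio of 0.595 (0.451 to 0.782). The other 10 were not called, and the 12 had a median log2 ratio of -0.26. Spg7 and Afg3l2, the subunits of the m-AAA protease, had 381 and 313 and 177 and 157 copies, and Clpp had 306 and 257.

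Of 6 compared mitochondrial aminoacyl-tRNA synthetases Cars2 rose from 128 to 206 copies, a ratio of 1.65 (1.32 to 2.07). Iars2 and Yars2, with 165 and 232 and with 177 and 200 copies, were not called. Of 6 genes of mitochondrial transcription and mRNA stability, Fastk fell from 317 to 194 copies, a ratio of 0.627 (0.522 to 0.752). Polrmt, the mitochondrial RNA polymerase, had 189 and 259 copies, a ratio of 1.40 (1.16 to 1.70), and Lrpprc had 204 and 197. Of 7 compared nuclear regulators, Gabpb2, a partner of GABPA, rose from 123 to 202 copies, a ratio of 1.68 (1.34 to 2.12). Gabpa had 290 and 215 copies, a ratio of 0.759 (0.634 to 0.909), Yy1 had 328 and 325, and Myc had 495 and 398. Nrf1 had 63 and 61 copies, too few to be compared.

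Nuclear OXPHOS subunits and cytosolic ribosomal proteins are the families most like the mitoribosome. Of 70 compared OXPHOS subunits 7 were called higher and 7 lower, with a median log2 ratio of 0.044 and a summed ratio of 1.032 (1.023 to 1.041). Of 69 cytosolic ribosomal proteins 3 were called higher and 14 lower, with a median of -0.27 and a summed ratio of 0.840 (0.837 to 0.843). The interval of the cytosolic sum lay below that of the mitoribosome sum, and these intervals take counting error as the sole error. Of 28 genes of mitochondrial protein import, 3 were called higher and 5 lower, with a median of 0.064.

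**Figure D4:**
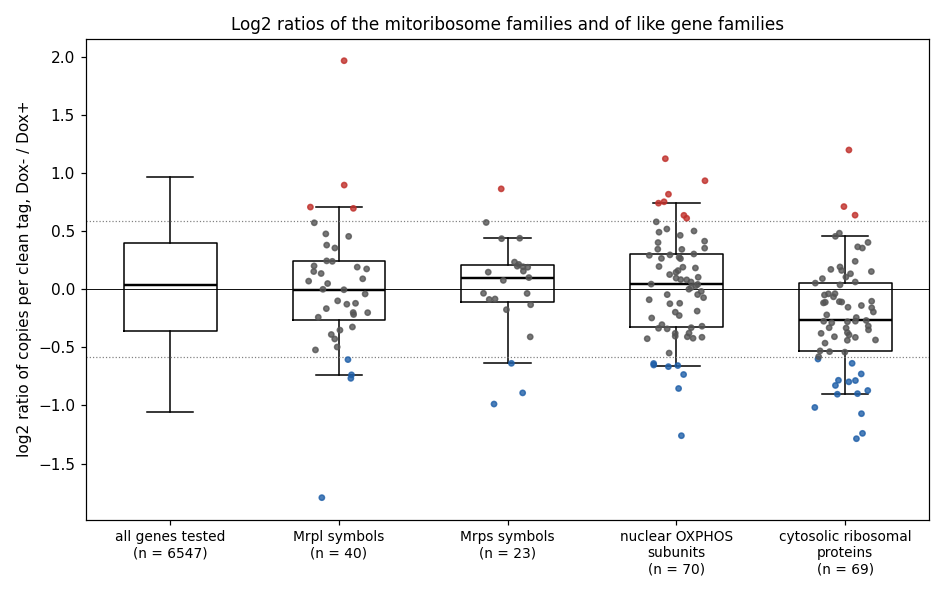
Log2 ratios, Dox- over Dox+ (y axis), of all genes compared, Mrpl genes, Mrps genes, nuclear OXPHOS subunits and cytosolic ribosomal proteins with at least 200 combined copies. Boxes show the median and the quartiles, whiskers percentiles 5 and 95, and points single genes (red and blue past 1.5-fold). The medians of the Mrpl genes, -0.001, and Mrps genes, 0.10, lie near that of all genes, 0.035, and that of the cytosolic ribosomal proteins lies at -0.27.

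The libraries differed in marker genes of uterine cell types, and in a tissue sample fewer cells of a type and less RNA per cell cannot be told apart. Smooth muscle markers summed to 48264 copies in Dox+ and 31598 in Dox-, with 5 of 9 compared called lower and none higher, and endothelial markers to 1458 and 960, with 3 of 4 called lower. Epithelial markers summed to 5202 and 7125 copies, with 3 of 8 called higher and 1 lower, and markers of proliferating cells to 2491 and 3693, with 6 of 9 called higher and none lower. Stromal markers summed to 54597 and 60185 copies, with 2 of 10 called higher and 4 lower, and leukocyte markers to 701 and 864, with none of 3 called. No marker found in the table was at 0 in either library. The part of these differences in the values of the mitoribosome genes was not tested.

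In the annotation the 75 genes lie on 17 chromosomes, with at most 10 on 1 chromosome (chromosome 11). Mrpl46 and Mrps11 are the sole neighbours within 100 kb, and they overlap on opposite strands of chromosome 7. Mrpl46 had 69 and 91 copies, and Mrps11 had 143 and 189, a ratio of 1.35 (1.08 to 1.69). The genes are short, with a median of 1185 bases in the longest coding transcript and 5 exons, beside 2915 bases and 9 exons over all genes compared.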

How the data were processed

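The measurements are DGE tag counts of 1 Dox+ and 1 Dox- library, each made from the pooled RNA of 3 uteri. Tags with adaptor only, of low quality or seen once were removed by the authors, the clean tags were aligned to mouse reference mRNAs of mm9, with sense and antisense tags searched, and unambiguous tags were counted per gene. Whether the deposited counts hold sense tags alone is not given in the sources used here. CASAVA is named in the processing notes of the submitters. The aligner and the restriction enzyme are not given in the sources used here, and the labels describe mRNA fragmentation. The deposited counts are these copy numbers without normalization. The deposited TPM values are copies per 1000000 clean tags, not divided by length. A gene without copies stands at 0.01, and the library sizes were recovered from them. The table also holds a log2 ratio, a ratio, a P-value and an FDR of the authors, which were not used.

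The members and gene lists were chosen with earlier results of these data known. Each condition is 1 library, so conditions were compared by ratios without a test or prior count. No member had 3 copies or fewer in a library, the level at which a ratio would have been a bound. The intervals were checked on simulated data. The text names each member past 1.5-fold, the 10 with the most copies, the 5 with the largest ratios each way, those under 200 combined copies and those of the stalk, exit site and central protuberance lists. In the other lists it names the called genes and the 3 with the most copies, while import, OXPHOS, cytosolic ribosomal and marker lists are given as counts. Alternatives were other scalings (TMM, median ratio, sum of gene copies), minimums of 0, 100 and 500 copies, a pseudocount of 1, thresholds of 2-fold and of 0.5 on the log2 scale, the Audic-Claverie test and the edgeR exact test with assumed variation. Positions are from GENCODE on NCBIM37 (mm9), and promoters from RefSeq on GRCm38.p6. Protein sequences were not used here. Ratios and intervals were computed with scipy 1.17.1 and numpy 2.4.6 in Python 3.11.15, tables were handled with pandas 2.3.3, and figures were drawn with matplotlib 3.10.9. The exact test was run with edgeR 4.0.16 under R 4.3.3.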

Additional observations from a re-analysis of the deposited data

How the results depend on the processing

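No paired analysis was possible because each condition had 1 library. With the sum of all gene copies as library size, every log2 ratio shifts by 0.038, the median log2 ratio was 0.089 over all compared mitoribosome genes and 0.037 over the Mrpl genes, and the summed ratio was 1.029. With median-ratio scaling these were 0.016, -0.036 and 0.978. For minimums of 0 and 500 copies the share of all genes called was not counted. With no minimum of copies 9 of the 75 genes were called higher and 10 lower. With a minimum of 500 copies 2 were called higher and 4 lower, and the medians were -0.003 overall and -0.051 over the Mrpl genes, over fewer genes. At 2-fold 1 gene was called higher and 1 lower, and so it was with an assumed coefficient of variation of 0.2 in the edgeR exact test, which called 147 higher and 174 lower of the 6547 genes compared. By the mean the 63 genes stood at 0.010 and the Mrps genes at 0.016. In 43 other values, those without Mrpl42 and Mrpl19 included, the calls stayed within 1.5 times and the sums within their counting interval. The medians moved by no more than the counting error of the summed log2 ratio, which is not the error of a median. Among the 43 were those with the Audic-Claverie test at an FDR below 0.05 (5 higher, 7 lower), which compares the libraries and not the conditions. Leaving out Mrpl42 and Mrpl19, an alternative chosen after seeing the data, left the median at 0.050 and the summed ratio at 1.002. Taking 1 gene from each end cannot move a median, and these genes hold few of the summed copies, so that this is no check. The direction of the 12 called genes held under each scaling and with a pseudocount of 1. It could not have reversed, since the scalings shift each log2 ratio by 0.038 or less and a pseudocount is small beside 200 copies. Depth limits the 12 genes under 200 combined copies most, and intervals cover counting error alone.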

Other observations

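Some mitoribosome genes start head to head with another gene, within 1000 bases and on the opposite strand. This was so for 16 of the 75 genes (21.3%), beside 11.2% of all genes compared, 25.7% of the nuclear OXPHOS subunits and 11.8% of the cytosolic ribosomal proteins.

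The copies of both genes were known for 15 pairs, of which 7 had their ratios on the same side of 1 and 8 on opposite sides. This count used no minimum of copies, and the side of 1 is uncertain for partners with few copies. Such partners included Lrrc46 with 2 and 9 copies, Cyb5rl with 10 and 10, and Zfp661 with 7 and 8. Both genes reached the minimum of combined copies used for comparison only in the pairs of Mrpl32, Mrpl51 and Mrpl40. In these pairs both ratios lay above 1. Mrpl32 starts 217 bases from Psma2, a proteasome subunit, which had 927 copies in Dox+ and 1218 in Dox-, a log2 ratio of 0.43 beside 0.70 for Mrpl32. Mrpl51 starts 206 bases from Ncapd2, a condensin subunit, which rose from 183 to 314 copies, a log2 ratio of 0.81 beside 0.36. Mrpl40 starts 270 bases from Hira, a histone chaperone, which rose from 145 to 234 copies, a log2 ratio of 0.72 beside 0.38.

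Other pairs differed in size or in side. Mrps34, with 157 and 208 copies and a log2 ratio of 0.44, starts 29 bases from Eme2, which had 50 and 18 copies, a log2 ratio of -1.44. Mrps27, with 6 and 10 copies, starts 108 bases from Ptcd2, which fell from 331 to 197 copies. Mrpl49, with 74 and 67 copies, starts 135 bases from Fau, a cytosolic ribosomal protein gene with 12485 and 13560 copies. Mrpl30, called lower with 500 and 321 copies, starts 66 bases from Mitd1, which had 89 and 99 copies. Mrps18b, called higher, starts 45 bases from Ppp1r10, which had 16 and 19 copies. These pairs were chosen after their values were seen, and no test was made of them.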
